A study of Mus musculus with 19 samples.

Results

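Splicing factor genes were followed here in liver parenchymal cells (hepatocytes) of young and old mice. The genes are the rows of the deposited count table that stand under a protein-coding RefSeq transcript (NM_) and whose symbol begins with Srsf and a digit, Hnrnp, Sf3a or Sf3b and a digit, U2af or Snrp. The rule gave 52 of 24537 rows: 8 SR protein genes, 20 hnRNP genes, 9 SF3 subunit genes, 3 U2AF genes and 12 snRNP protein genes. All 19 mice were male, wild type and of the C57BL/6J strain. The young group had 10 mice of 5 months and the old group 9 mice of 24 months, with 1 poly(A) RNA library per mouse. Mice of both ages were culled on each of 2 days, 23 days apart: 5 young and 5 old on the first, and 5 young and 4 old on the second. The cells came from livers perfused in sequential steps, and the labels name no later sort or gate that would remove other liver cells. The labels set no agent, transgene or deletion in either group. The labels alone say that each library is a separate mouse, and all p-values measure the spread among these libraries.

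Splicing removes introns from precursor RNA and joins the exons. Small nuclear ribonucleoproteins, which are built from an RNA, a shared ring of Sm proteins and proteins of their own, recognise the ends of the intron, and U2AF and the SF3 complexes place the U2 particle at the branch point and the 3′ splice site. SR proteins and hnRNP proteins bind the precursor RNA around these sites, where SR proteins often favour and hnRNP proteins often oppose the use of an exon, although both groups can do either. Many of these proteins also act in RNA export, stability or translation.

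Total counts over genes ran from 17381400 to 20287600 per library, and 12269 genes passed the filter on low counts. Levels are CPM, counts scaled to a common library size, after trimmed mean of M-values (TMM) scaling. The albumin gene took 5.82% to 6.29% of counts in young libraries 1184, 1186 and 1188 of the first cull day and 10.2% to 11.1% in the other young libraries, so those 3 stand apart. All 13 hepatocyte markers in the table were measured, with summed levels of 117786 to 172159 CPM in young and 132797 to 218288 CPM in old libraries, and 2 of them rose and 5 fell. Markers of other liver cells were present too, and 13 of 14 macrophage, 11 of 14 endothelial and 13 of 13 tested stellate cell markers rose with age. Their summed levels were 89.9 to 446 CPM in young and 59.3 to 3162 CPM in old libraries for macrophages, 179 to 320 and 192 to 637 CPM for endothelial cells, and 54.1 to 142 and 149 to 574 CPM for stellate cells. Both B cell markers that passed the filter rose, among them Jchain with a log2 fold change of 2.14, as did the 1 neutrophil marker that passed, Csf3r (2.10). For T and NK cells, 1 of 12 markers, Cd4, passed the filter and it was not called. The others in the table were under the filter, each with a higher mean in old mice. Cd8a, for one, was at 0.0384 ± 0.0731 CPM in young and 0.783 ± 1.68 CPM in old mice (mean ± SD). None of the markers in the table was at 0 in every library. None of the 4 cholangiocyte markers that passed was called. Their list summed to 45.5 to 188 CPM in young libraries 1184, 1186 and 1188, 12.3 to 36.5 CPM in the other young ones and at most 79.1 CPM in old libraries. Old library 1187 had the highest summed macrophage, endothelial and stellate levels. In bulk RNA, fewer cells of a type and less RNA per cell cannot be told apart.

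The splicing factor genes together took up 0.286% ± 0.0133 (SD, n = 10) of all counts at 5 months and 0.294% ± 0.0261 (SD, n = 9) at 24 months. The hnRNP genes made up 65.2% ± 1.54 of these counts in young and 64.2% ± 1.18 in old mice, and the SR genes 14.3% ± 1.61 and 15.9% ± 1.35. Divided by transcript length, the highest mean level over all mice was that of Hnrnpa2b1, which encodes an abundant nuclear RNA-binding protein, at 104 CPM per kilobase. Srsf5 followed at 93.4 CPM per kilobase, then Hnrnpk at 66.5 and Hnrnpab at 64.7. The highest in the other classes were Snrpd3 at 42.6, U2af1 at 34.2 and Sf3b2 at 28.8 CPM per kilobase. Srsf12 was the single member that failed the filter, with 0 to 2 counts per library, and it was not tested.

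Few splicing factor genes differed with age, and the fitted changes of those that did were under 1.5-fold in the model with age and cull day. Of 51 members tested, 4 rose (Srsf5, Hnrnpa1, Hnrnpd and Hnrnpa0) and 4 fell (Srsf10, Hnrnpab, Snrpd3 and Hnrnpc) at an adjusted p under 0.05 in edgeR's quasi-likelihood test with cull day as a covariate. That is 15.7% of the members, beside 30.9% of all 12269 genes tested, and beside 28.7% of the 7654 genes whose mean count was at least that of the lowest tested member. By direction, 7.84% of members rose and 7.84% fell, beside 16.3% and 14.5% of all genes. The classes differed: 28.6% of SR and 25% of hnRNP genes were called, near the 30.9% of all genes. Of the snRNP genes 8.33% were called, and 0% of the SF3 and of the U2AF genes. At an unadjusted p under 0.05 the counts were 15 members (29.4%) and 5193 genes (42.3%). The median log2 fold change, old over young, was -0.04 over the members and -0.003 over all genes. The members ran from -0.22 to 0.47, and none reached a 2-fold change, which 7.76% of all genes and 2.04% of those 7654 genes did. In none of the 51 members were the 2 ages free of overlap, beside 1.72% of all genes (0.994% with every old library above and 0.725% with every old library below the young ones). Among only 51 members, none cannot be told apart from shares as small as 1.72% or 2.04%.

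For most members the fit excluded a large age difference. For 50 of 51 members the 95% interval of the age difference lay within 1.5-fold in either direction, which held for 67.8% of all genes and for 83.3% of the genes at or above the lowest member's mean count. Srsf5 was the exception. Whether an interval lies within 1.5-fold depends on the size of the difference as well as on its error. The median absolute log2 fold change was 0.0902 over the members and 0.154 over the genes at or above the lowest member's mean count. The median standard error was 0.0816 on the log2 scale over the members, 0.0891 over the 7654 genes at or above the lowest member's mean count, and 0.110 over all genes. Intervals of this width leave room for small differences in the members that were not called.

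**Figure D1:**
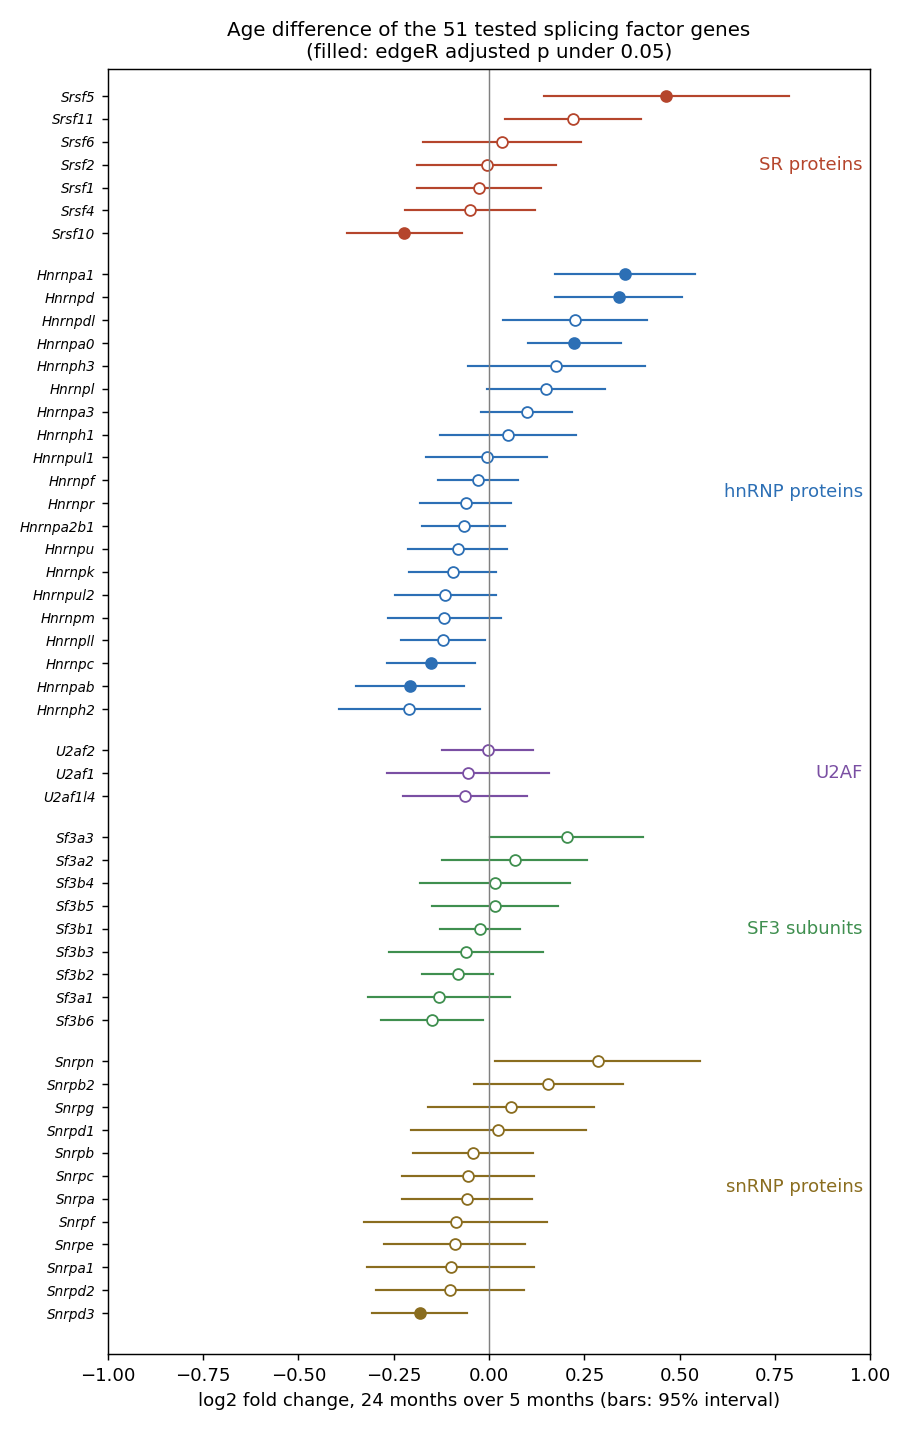
Age difference of each of the 51 tested splicing factor genes, as log2 fold change of 24 over 5 months (points) with its 95% interval (bars), grouped by class. Filled points passed an adjusted p of 0.05 in edgeR: 4 lie to the right of 0 and 4 to the left, and all members lie between -0.22 and 0.47.

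Among the SR genes, 1 of 7 tested rose and 1 fell (28.6% called, beside 30.9% of all genes). Srsf5 encodes an SR protein whose gene is known to respond quickly to insulin and growth signals in liver cells. It ran from 79.5 CPM (median 126, highest 219) in young mice and from 135 CPM (median 180, highest 212) in old mice. The ages overlapped and the highest value was in a young mouse, while young libraries 1188, 1186 and 1184 were the lowest of all at 79.5, 85.1 and 97.1 CPM. The mean went from 132 ± 46.1 (SD, n = 10) to 178 ± 26.5 CPM (SD, n = 9). The fitted log2 fold change, which takes cull day into account and need not equal the ratio of the means here or below, was 0.47 (SE 0.153, edgeR adjusted p = 0.0279), or 1.38-fold with a 95% interval of 1.11 to 1.72. Without those 3 libraries the log2 fold change of Srsf5 was 0.28 and the call was lost (edgeR adjusted p = 0.178), as it was without a term for cull day (0.44, edgeR adjusted p = 0.0593). Its gene is at chr12:80945499-80950506 on mm10.

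Srsf10, which encodes an SR-like protein that represses splicing when it is dephosphorylated, as in heat shock, moved the other way. Young mice held 20.3 to 26.7 CPM (median 23.7) and old mice 16.8 to 23.1 CPM (median 19.6). Of the 9 old libraries, 5 lay below every young library. On the log2 scale Srsf10 changed by -0.22 (SE 0.0724, edgeR adjusted p = 0.0263), and -0.13 without young libraries 1184, 1186 and 1188, where the call was lost (edgeR adjusted p = 0.205). The remaining SR genes did not pass. Srsf11 came nearest, at 0.22 (edgeR adjusted p = 0.0578), while Srsf1, Srsf2, Srsf4 and Srsf6 had log2 fold changes between -0.05 and 0.03.

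Of the 20 hnRNP genes, 3 rose and 2 fell (25% called, beside 30.9% of all genes). Hnrnpa1 encodes the best known hnRNP, which binds exonic and intronic silencers and shuttles between nucleus and cytoplasm. It ran from 47.8 to 60.6 CPM (median 55.0) in young mice and from 59.7 to 94.7 CPM (median 68.2) in old mice. The lowest old mice overlapped the highest young ones, and 5 of 9 old libraries lay above every young library. Old libraries 1187, 1242 and 1236 were the highest, at 94.7, 84.1 and 75.8 CPM. The mean went from 54.9 ± 4.55 to 70.2 ± 12.5 CPM (SD, n = 10 and 9), with a fitted difference of 0.36 on the log2 scale (SE 0.0880, edgeR adjusted p = 0.00638).

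The 2 old libraries with the most Hnrnpa1 also had the most of the markers of other liver cells. The other-cell score, the mean log2 CPM of 44 macrophage, endothelial, stellate and lymphoid markers, was 5.49, 4.26 and 3.75 in libraries 1187, 1242 and 1236, with a median of 3.68 over old and 2.61 over young mice. With that score as a further covariate the log2 fold change of Hnrnpa1 was 0.15 (edgeR adjusted p = 0.295), and 3 members were called (5.88%, beside 11.5% of all genes): Hnrnpd, Srsf5 and Hnrnph2. Srsf5 was then larger, at 0.73 (edgeR adjusted p = 0.0129). Hnrnpa0 at 0.23 (edgeR adjusted p = 0.0557), Hnrnpab at -0.20 (edgeR adjusted p = 0.158) and Hnrnpc at -0.16 (edgeR adjusted p = 0.146) lost their calls at about the same size, while Srsf10 at -0.15 and Snrpd3 at -0.13 lost theirs at a smaller one. Score and age rise together, and the part of other cells in the rise of Hnrnpa1 was not tested. Without young libraries 1184, 1186 and 1188 and old library 1187 the log2 fold change was 0.34 (edgeR adjusted p = 0.00755).

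Hnrnpd, also known as AUF1, binds AU-rich elements and controls the decay of messenger RNAs. It held 22.9 to 33.4 CPM (median 27.3) in young mice and 30.4 to 39.6 CPM (median 34.5) in old mice, with 5 old libraries above every young library. Old exceeded young by 0.34 on the log2 scale (SE 0.0800, edgeR adjusted p = 0.00473), the smallest p of all members. The difference was 0.35 and 0.33 on the 2 cull days. With the score of other cells in the fit it was 0.40 (edgeR adjusted p = 0.0191). An antisense transcript, Gm17092, shares 5.65% of the exon bases of Hnrnpd, and the strand setting of the counting is not given in the sources used here.

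Hnrnpa0, an intronless gene whose protein binds AU-rich elements of immediate early messages, rose as well. It ran from 46.2 to 56.7 CPM (median 49.4) in young mice and from 51.7 to 67.5 CPM (median 57.9) in old mice. Of the 9 old libraries, 6 lay above every young library. On the log2 scale Hnrnpa0 rose by 0.22 (SE 0.0586, edgeR adjusted p = 0.00889), with the same value of 0.22 on either cull day. The calls of Hnrnpa0, Hnrnpa1 and Hnrnpd held when any single library was left out.

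Hnrnpab and Hnrnpc fell. Hnrnpab, which encodes a protein of the AUF1-like group also known as CBF-A, ran from 157 to 191 CPM (median 172) in young mice and from 122 to 186 CPM (median 151) in old mice. Here 7 old libraries lay below every young library and libraries 1189 and 1242 stood inside the young range at 186 and 168 CPM. The change on the log2 scale was -0.21 (SE 0.0678, edgeR adjusted p = 0.0264), and without the 3 young libraries it was also -0.21 but missed the threshold (edgeR adjusted p = 0.0658). The gene shares 13.1% of its exon bases with Phykpl on the opposite strand.

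Hnrnpc, which binds uridine tracts of nascent RNA and hinders U2AF from binding at wrong sites, had 84.1 to 105 CPM (median 94.2) in young mice and 77.5 to 94.1 CPM (median 81.4) in old mice. Old libraries were at the low end, with 5 below every young library. The change on the log2 scale was -0.15 (SE 0.0556, edgeR adjusted p = 0.0434). Leaving out 1 library at a time ended this call in 13 of 19 fits, and without young libraries 1184, 1186 and 1188 the value was -0.08 (edgeR adjusted p = 0.275).

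The other 15 hnRNP genes did not pass. They include the most abundant hnRNP gene per length, Hnrnpa2b1, and the next, Hnrnpk, while Hnrnpab, which came after them, was called lower. Hnrnpa2b1, at 239 ± 14.5 CPM (SD, n = 10) in young and 228 ± 13.1 CPM (SD, n = 9) in old mice, had a log2 fold change of -0.07 (edgeR adjusted p = 0.344). Hnrnpk was at -0.10, Hnrnpa3 at 0.10, Hnrnpu at -0.08 and Hnrnpf at -0.03 on the same scale. Closest to the threshold were Hnrnpdl at 0.22 (edgeR adjusted p = 0.0658), Hnrnph2 at -0.21 (edgeR adjusted p = 0.0774) and Hnrnpll at -0.12 (edgeR adjusted p = 0.0859).

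None of the genes that place the U2 particle on the intron was called. U2af1 and U2af2 encode the small and the large U2AF subunit, which bind the 3′ splice site and the pyrimidine tract before it. Their log2 fold changes were -0.06 (edgeR adjusted p = 0.704) and -0.004, and that of U2af1l4, a relative of U2af1, was -0.06 (edgeR adjusted p = 0.563). U2af1l4 shares 94.3% of its exon bases with Gm49396 on the same strand, so its value may include reads of that gene. All 9 SF3 genes had log2 fold changes between -0.15 and 0.20. The smallest p belonged to Sf3b6, whose protein touches the branch point, at -0.15 (edgeR adjusted p = 0.0831). Sf3b2, the highest of the SF3 genes per length, was at -0.08 (edgeR adjusted p = 0.168). Sf3b1, which encodes the scaffold that holds the branch point helix, had 82.6 ± 6.38 CPM (SD, n = 10) in young and 81.5 ± 5.26 CPM (SD, n = 9) in old mice. At an unadjusted p under 0.05 stood 2 SF3 genes and no U2AF gene, and among these 12 genes DESeq2 called Sf3b2 alone and limma-voom Sf3b6 alone. EdgeR also called Sf3b6 with no filter on low counts and without old library 1187, and Sf3a3 without old library 1181.

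Among the 12 snRNP protein genes 1 fell (8.33% called, beside 30.9% of all genes). Snrpd3 encodes a protein of the Sm ring that all major spliceosomal snRNPs but U6 carry. It ran from 21.6 to 34.5 CPM (median 27.7) in young mice and from 18.9 to 28.6 CPM (median 24.0) in old mice. The ages overlapped widely, with 4 old libraries below every young library, and the gene was also higher on the second cull day. The change on the log2 scale was -0.18 (SE 0.0601, edgeR adjusted p = 0.0277), and -0.20 and -0.16 within the first and the second cull day. Without young libraries 1184, 1186 and 1188 it was -0.19 (edgeR adjusted p = 0.0501), so the size stayed while the call was just lost. The other Sm genes Snrpb, Snrpd1, Snrpd2, Snrpe, Snrpf and Snrpg had log2 fold changes between -0.10 and 0.06, and none was called. Snrpn, an imprinted gene whose protein replaces the SmB protein mainly in brain, stood at 0.28 (edgeR adjusted p = 0.0972). Its values were 0.10 and 0.49 on the first and the second cull day. Limma-voom called it, as did edgeR on the second cull day alone and in some fits without single libraries or sets of them. Snrpn shares 10% of its exon bases with Snurf and 15% with Gm38393 on the same strand. On the opposite strand, Snrpf shares 65.9% of its exon bases with Ccdc38, and Srsf4 shares 67.9% with Gm12992.

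**Figure D2:**
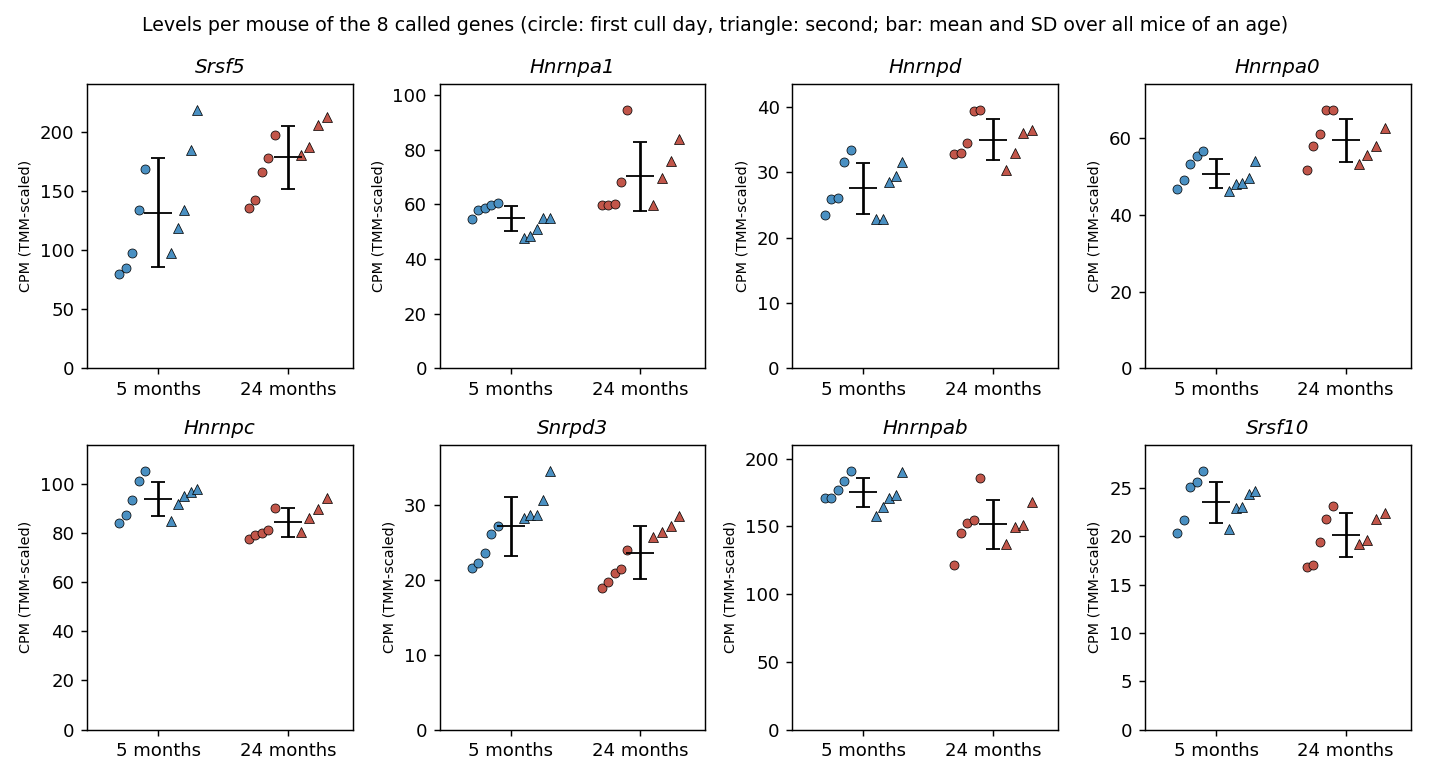
TMM-scaled CPM of the 8 called genes in each mouse, young on the left and old on the right of each panel, with circles for the first and triangles for the second cull day and bars for the mean and SD of each age. The ages overlap in every panel. Srsf5 has the widest spread in young mice, from 79.5 to 219 CPM.

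Taking out young libraries 1184, 1186 and 1188 left 4 members called, all higher in old mice (Hnrnpa0, Hnrnpa1, Hnrnpd and Snrpn), or 7.84% of members beside 27.2% of all genes. None was then called lower in edgeR, with 3 members lower at an unadjusted p under 0.05. The calls of Hnrnpa0, Hnrnpa1 and Hnrnpd thus held without those 3 libraries, whereas those of Srsf5 and of all 4 genes that fell were lost, with Hnrnpab and Snrpd3 at nearly the same size. When old library 1187 was left out as well, Hnrnpa1 and Snrpn were called, or 3.92% of members beside 28.3% of all genes. Hnrnpd at 0.24 (edgeR adjusted p = 0.0509) and Hnrnpa0 at 0.18 (edgeR adjusted p = 0.0614) then missed the threshold.

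Srsf5 was also the member that varied most between mice of the same age and cull day, with an SD of 0.363 on the log2 scale where counting error alone would give 0.0265. Snrpn followed at 0.291, with 0.101 from counting. At the other end stood Sf3b2 at 0.0610 and Hnrnpf at 0.0784. With 1 library per mouse, this spread holds differences between mice, cell preparations and libraries together, and the low values of young libraries 1184, 1186 and 1188 enter it.

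The promoters of 5 of the called genes are shown because these genes moved in both directions. Each sequence is the 150 bases before the transcription start, 5′ to 3′ on the gene's strand, from RefSeq on GRCm38.p6, the build also called mm10. Capitals mark matches on either strand to CCGGAAG (ETS factors), CCAAT (the CCAAT box), GGGCGG (the GC box), CACGTG (the E-box), AAGATGGCG (YY1), TATAAA (the TATA box) or the NRF1 motif, and matches may overlap. The first 3 genes rose and the last 2 fell.
Srsf5, chr12:80945349-80945498, plus strand: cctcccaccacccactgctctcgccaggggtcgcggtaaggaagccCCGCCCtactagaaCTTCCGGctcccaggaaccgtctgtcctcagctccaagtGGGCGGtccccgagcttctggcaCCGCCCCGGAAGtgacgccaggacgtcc
Hnrnpa1, chr15:103240247-103240396, plus strand: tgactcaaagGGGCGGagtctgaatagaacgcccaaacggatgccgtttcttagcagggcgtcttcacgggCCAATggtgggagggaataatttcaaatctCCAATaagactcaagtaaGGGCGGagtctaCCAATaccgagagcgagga
Hnrnpd, chr5:99978939-99979088, minus strand: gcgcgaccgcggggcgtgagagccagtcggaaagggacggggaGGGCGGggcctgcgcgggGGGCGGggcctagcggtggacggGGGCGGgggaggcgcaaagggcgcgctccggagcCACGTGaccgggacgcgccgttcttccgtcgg
Srsf10, chr4:135855921-135856070, plus strand: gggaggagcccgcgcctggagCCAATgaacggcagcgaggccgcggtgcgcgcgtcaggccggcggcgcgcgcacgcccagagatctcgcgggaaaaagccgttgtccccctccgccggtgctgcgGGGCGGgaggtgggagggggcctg
Hnrnpab, chr11:51606882-51607031, minus strand: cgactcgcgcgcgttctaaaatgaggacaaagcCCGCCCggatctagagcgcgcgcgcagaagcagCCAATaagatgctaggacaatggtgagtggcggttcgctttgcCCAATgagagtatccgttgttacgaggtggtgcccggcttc

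The printed Srsf5 window holds 2 ETS and 3 GC box matches, and an ETS match overlaps a GC box at its 3′ end. Hnrnpa1 has 3 CCAAT boxes and 2 GC boxes, Hnrnpd 3 GC boxes and 1 E-box, Srsf10 1 CCAAT box and 1 GC box, and Hnrnpab 2 CCAAT boxes and 1 GC box. Over the 250 bases before the start, a window was found for 44 of 52 members and for 9234 of the 12269 tested genes. The ETS letters stood in 29.5% of the member windows and 14.6% of all, and the NRF1 letters in 15.9% and 8.82%. For the CCAAT box the shares were 45.5% and 36.4%, for the GC box 70.5% and 60%, for the TATA box 9.09% and 6.41%, for the E-box 6.82% and 8.73%, and for YY1 0% and 1.28%. By direction, the CCAAT box stood in 2 of the 4 genes that rose and 4 of the 4 that fell, the ETS letters in 2 and 0, and the GC box in 4 and 3. These are matches of letters and not measured binding.

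Other genes of the splicing machinery were taken from lists. In 8 lists with 168 further genes, 167 were tested, 8 rose and 15 fell (13.8% called, beside 30.9% of all genes, of which 16.3% rose and 14.5% fell), with a median log2 fold change of -0.008 and a range of -0.41 to 0.86. Among 38 other splicing regulators, 4 rose and 2 fell, with a median of -0.01. Cirbp and Rbm3, which encode RNA-binding proteins induced by mild cold, had the 2 largest rises of the 8 lists. Cirbp went from 11.8 ± 3.33 (SD, n = 10) to 21.4 ± 2.22 CPM (SD, n = 9), a log2 fold change of 0.86 (edgeR adjusted p = 0.000264). Rbm3 went from 20.3 ± 6.25 to 35.4 ± 17.8 CPM, a log2 fold change of 0.78 (edgeR adjusted p = 0.00936). Rbm4, which encodes an RNA-binding regulator of exon choice, fell by 0.40 (edgeR adjusted p = 0.00326). Cirbp had the smallest p of the rises and Rbm4 of the falls in this list, whereas Rbm3 was chosen after its values were seen. Calls in the 8 lists were not examined without young libraries 1184, 1186 and 1188, without old library 1187 or with the other-cell score.

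SR proteins are phosphorylated by the SRPK and CLK kinases, which move them into the nucleus and release them from speckles. Of 27 genes for these kinases and for speckle proteins, 1 rose and 3 fell, with a median of 0.03. Srpk1, the main cytoplasmic SR protein kinase, went from 13.6 ± 1.08 (SD, n = 10) to 10.3 ± 0.971 CPM (SD, n = 9), a log2 fold change of -0.41 (edgeR adjusted p = 0.000125). Pnisr, which encodes a speckle protein, rose by 0.41 (edgeR adjusted p = 0.00591).

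Among 17 genes for factors that work with the U1 and U2 particles, 2 rose and 2 fell, with a median of 0.04. Prpf40b, a U1-associated protein gene, rose by 0.55 (edgeR adjusted p = 0.00227), and Dhx15, a helicase that takes spliceosomes apart, fell by 0.27 (edgeR adjusted p = 0.00922). The 25 tri-snRNP genes had 0 rises and 2 falls. Usp39, needed for the tri-snRNP to join the spliceosome, fell by 0.38 (edgeR adjusted p = 0.000246). In the Prp19 complex and catalytic step list, 1 of 23 genes rose and 3 fell. Xab2 rose by 0.20 (edgeR adjusted p = 0.0216) and Prpf19, the ubiquitin ligase of the complex, fell by 0.19 (edgeR adjusted p = 0.0127).

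Assembly of snRNPs runs through the SMN complex, which loads the Sm ring onto the RNA. Of 15 genes for it, 0 rose and 1 fell, and the median of -0.13 was the lowest of the lists. The gene that fell was Strap, which encodes a protein of that complex, with 80.5 ± 4.48 CPM (SD, n = 10) in young and 67.8 ± 5.63 CPM (SD, n = 9) in old mice. Its log2 fold change was -0.25 (edgeR adjusted p = 0.00316). Of 11 exon junction complex and decay genes, 0 rose and 2 fell, among them Upf2, a nonsense-mediated decay factor, which fell by 0.26 (edgeR adjusted p = 0.0113). None of the 11 minor spliceosome genes was called in edgeR, with 3 at an unadjusted p under 0.05.

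**Figure D3:**
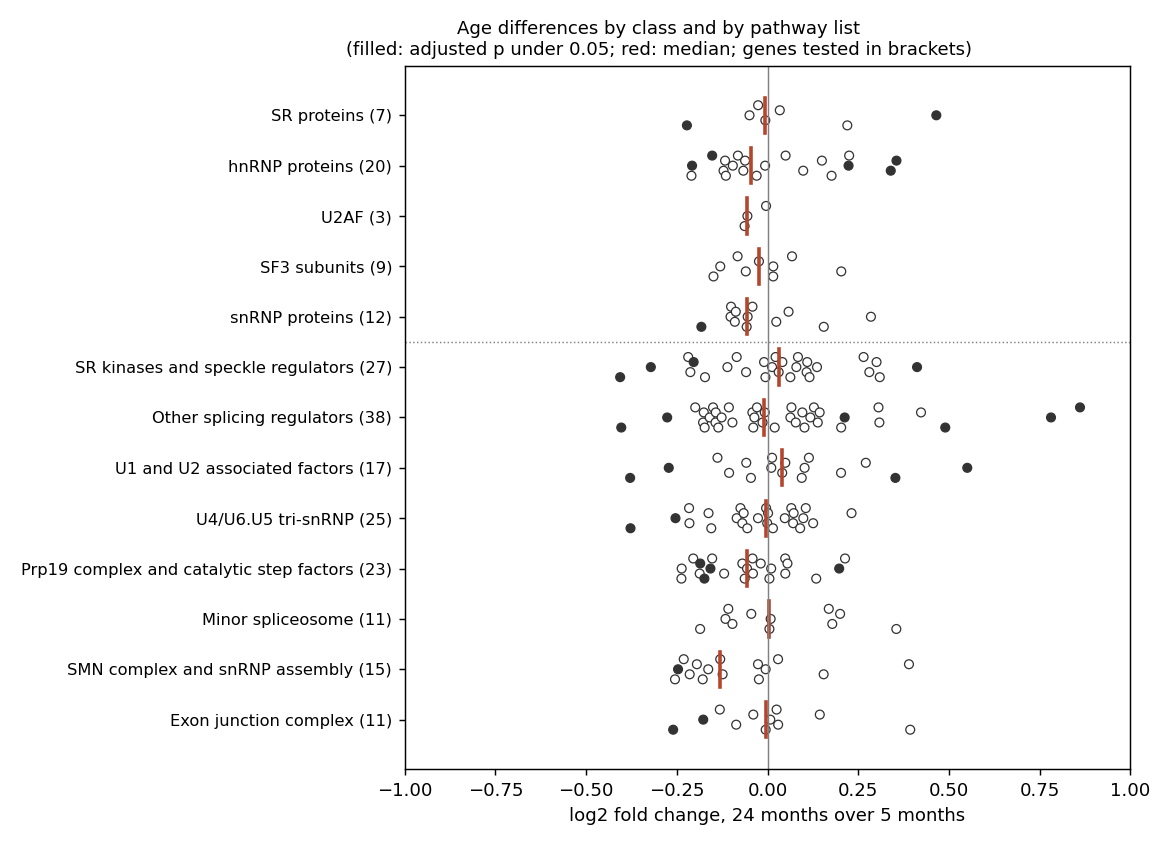
Age differences as log2 fold change of 24 over 5 months for every tested gene of the 5 member classes (above the dotted line) and of the 8 pathway lists (below it), with filled points for genes called in edgeR and a red bar for each median. Medians lie between -0.13 (SMN complex) and 0.04 (factors of the U1 and U2 particles), and the 2 points farthest to the right are Cirbp and Rbm3.

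Cull day was tested in the same fit. At an adjusted p under 0.05, 8 members were higher and 3 lower on the second day, or 21.6% of the members beside 12.3% of all genes (5.72% higher and 6.55% lower). The genes that were higher were Hnrnph3 (log2 fold change, second over first day, 0.53), Snrpd2 (0.44), Hnrnph1 (0.41), Snrpd3 (0.34), Snrpe (0.30), Sf3b5 (0.29), U2af1l4 (0.29) and Sf3b6 (0.27), and the lower ones were Sf3b3 (-0.33), Sf3a1 (-0.31) and Hnrnpul1 (-0.28). Hnrnph1 and Hnrnph3 encode hnRNPs that bind G-rich tracts. Apart from U2af1l4, Sf3b6 and Snrpd3 these genes are named after their values were seen. With 1 library left out at a time, the day call was lost in 11 of 19 fits for Snrpe, 9 for Sf3b3, 5 each for Sf3a1 and Hnrnpul1 and 3 each for Sf3b5 and U2af1l4, and in none for the other 5 genes.

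The day difference followed transcript length. All 10 members with transcripts under 1000 bases had a positive day difference, as did 782 of 946 such genes in the whole table, while the 41 longer members were split into 18 positive and 23 negative. Spearman's rho between length and the day difference was -0.594 over 51 members and -0.488 over 12269 genes, which share the same libraries. The median length was 792.5 bases for the 8 members that were higher and 4271 bases for the 3 that were lower. With the length trend of each library removed, 2 members were called for cull day, Hnrnph1 (0.37) and Hnrnph3 (0.46), with 1.56% of all genes called. Hnrnpul1 then missed the threshold at -0.25 (edgeR adjusted p = 0.0775). Without young libraries 1184, 1186 and 1188 none was called in edgeR, with 16 at an unadjusted p under 0.05, and 0% of all genes were called either. Fewer mice enter that fit, and Hnrnph1 at 0.41, Hnrnph3 at 0.51 and Hnrnpul1 at -0.31 kept about their size. The sizes of the other day-called members in that fit are not given here. When old library 1187 was left out as well, Sf3b6 and Snrpd3 were called for cull day, with 1.41% of all genes. The age difference had no such relation to length in the members (Spearman's rho -0.038, n = 51), and with the length trend removed the same 8 members were called for age, together with Hnrnpll.

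**Figure D4:**
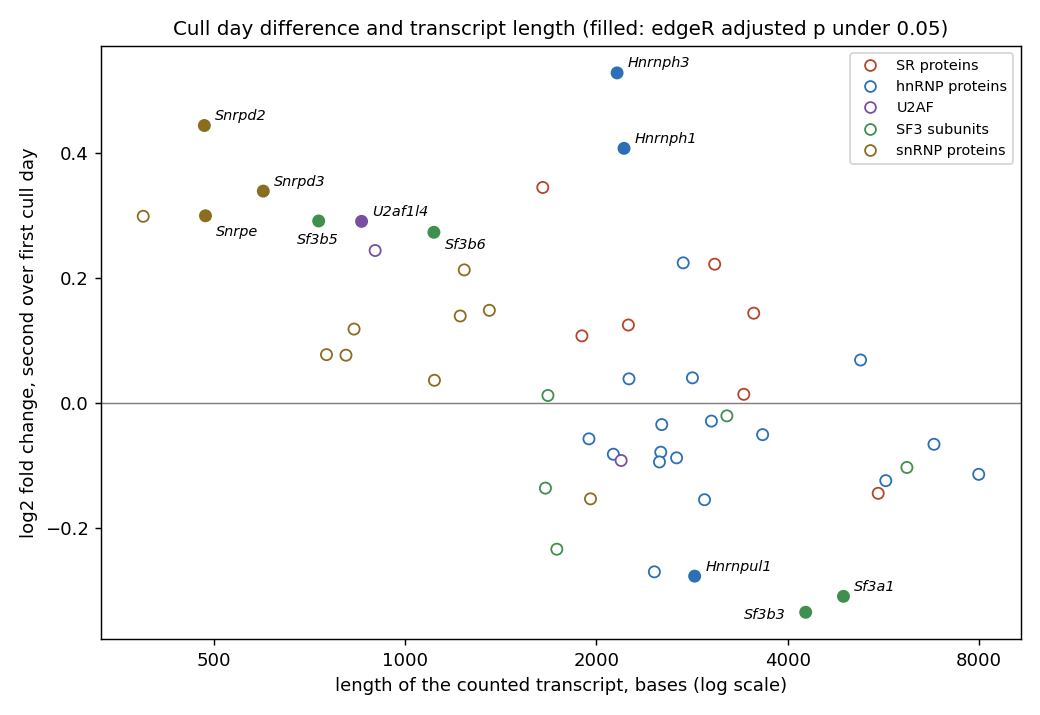
Difference between cull days (log2 fold change, second over first) against the length of the counted transcript on a log axis, for the 51 tested members, coloured by class, with filled points for those called in edgeR. The 10 members under 1000 bases all lie above 0, and Hnrnph1 and Hnrnph3 stand apart as longer transcripts with a large difference.

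An interaction term tested whether the age difference changed from the first cull day to the second. None of the 51 members passed in edgeR, as none of all genes did (0%), and 2 members had an unadjusted p under 0.05, beside 799 of all 12269 genes. The age difference had the same sign on both cull days in 38 of 51 members and in 9184 of all 12269 genes. Among the called genes the first and the second day gave 0.54 and 0.38 for Srsf5, 0.23 and 0.49 for Hnrnpa1, -0.24 and -0.18 for Hnrnpab, -0.28 and -0.16 for Srsf10, and -0.21 and -0.09 for Hnrnpc.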

How the data were processed

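Poly(A) RNA of 19 hepatocyte libraries was sequenced from stranded paired-end libraries, per the labels' protocols. The authors deposited 1 table of estimated counts per gene, made by HOMER over exons of RefSeq transcripts on mm10, per the file headers, and STAR is named without a version in the submitters' processing notes. Counts come in steps of 0.5 (29.2% of cells are not whole) and were rounded. Counts in genes were 78.3% to 86.5% of the totals in the column names. Strand setting and the treatment of reads with several matches are not given in the sources used here, so overlapping genes and near-identical families are uncertain.

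Age was tested over all genes with edgeR 4.0.16 (R 4.3.3): quasi-likelihood F test, TMM, filterByExpr by age (minimum count 10), cull day as covariate, Benjamini-Hochberg adjustment. CPM used the TMM-scaled library totals, and the other-cell score a prior count of 2. Standard errors came from each log2 fold change and its F statistic. The edgeR step was tested on simulated data. Alternatives used DESeq2 1.42.0, limma 3.58.1, other scalings, filters and covariates, each cull day, and each library left out. Removal of the length trend and the set without library 1187 were chosen after seeing the data. Exon overlaps came from GENCODE M21. Figures used Python 3.11.15 and matplotlib 3.10.9.

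The members, gene lists and marker lists were chosen with earlier results of these data known. Genes named were all called members, in each class the gene with the smallest p and the one with the highest level per length, and in each pathway list the called gene with the smallest p in each direction. Members that missed the threshold are given as examples.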

Additional observations from a re-analysis of the deposited data

Results flagged for a closer look

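Of 102 tests for a library far from the rest of its age group (51 members in 2 ages), 2 met Dixon's 95% limit on log2 CPM, while chance flags about 1 in 20. Hnrnpul2, an RNA-binding protein gene with a DNA repair role, stood at 127 CPM in old library 1189, against 105 CPM in the next old library and 91.3 CPM in the lowest. The gap took 0.582 of the range on the log2 scale and 0.622 on the CPM scale. Snrpa1, which encodes a protein specific to the U2 particle, stood at 6.74 CPM in young library 1180, against 9.68 CPM in the next young library and 14.2 CPM in the highest. Its gap was 0.487 of the range on the log2 scale but 0.396 on the CPM scale, where it is under the limit. Neither gene was called for age.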

How the results depend on the processing

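No paired analysis was possible because the ages share 0 replicate numbers. No result reversed direction while called. Of the 14 alternatives, 8 called all 4 members that rose and 6 called all 4 that fell. The number higher was within 1.5 times in 10, and the number lower in 7. With the other-cell score as covariate 2 members were higher and 1 lower, with 1407 genes called in all. The first cull day alone called 0 higher and 0 lower and 450 genes, and edgeR gave an unadjusted p under 0.05 to 4 members in each direction. The second called 2 higher and 0 lower (0 lower at an unadjusted p under 0.05) and 2388 genes. Fewer mice entered each of these fits. Library totals alone gave 0 lower (2 at an unadjusted p under 0.05) and moved the median of all genes to 0.041, and no cull day term gave 2 lower and lost Srsf5 among those higher. Without young libraries 1184, 1186 and 1188, 0 were lower (3 at an unadjusted p under 0.05) and 0 called for cull day (16). Without old library 1187 as well, 2 were higher, 0 lower (3 at an unadjusted p under 0.05) and 2 called for cull day. Removing the length trend left 2 of 11 members called for cull day. The cause was not tested for the other-cell score, the scaling or the libraries.

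Leaving out 1 library at a time gave 3 to 7 members higher (7 without old library 1181), 1 to 4 lower (1 without young library 1188, 2 without old library 1238), 3014 to 3949 genes called by age and 5 to 14 members called for cull day (7, 5, 5 and 6 without 1186, 1239, 1242 and 1243). Single calls were lost for Hnrnpab without 1240, for Srsf5 and Srsf10 without 1188, and for Snrpd3 without 1182, 1188 or 1238. DESeq2 and limma-voom each called all 8 members. The interaction stayed at 0 members in all 9 alternatives and 19 such fits. The filter on low counts kept Srsf12, with 0 to 2 counts per library, out of the tests.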

Other observations

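The SR genes Srsf3, Srsf7 and Srsf9 are listed in the count table under non-coding transcripts (NR_) and were not members by the rule. Their mean levels were 45.0, 20.8 and 17.6 CPM in young and 46.5, 24.0 and 19.4 CPM in old mice. The log2 fold changes were 0.04 for Srsf3 (edgeR adjusted p = 0.807), 0.22 for Srsf7 (edgeR adjusted p = 0.105) and 0.13 for Srsf9 (edgeR adjusted p = 0.290), and none was called.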
